A study of Drosophila melanogaster with 8 samples.

Results

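The adult muscle precursor myoblasts of the wandering Drosophila larva are described here from single-nucleus RNA sequencing of whole animals. They are the nuclei that the study's authors placed in cluster 12 of their 28 clusters and named myoblasts, and they number 967 of the 30819 nuclei in the data. All 8 libraries come from w1118, a white-eyed laboratory strain, and each was made from a pool of 16 larvae, 8 males and 8 females, collected 5 days after egg deposition. The labels call every library wild type and name no transgene or treatment. Libraries were therefore taken as replicates and are called by the number in their barcodes. A unique molecular identifier (UMI) marks each captured RNA molecule, and the values are UMI counts from which the authors had subtracted an estimate of free RNA.

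Adult muscle precursors are set aside in the embryo, keep expressing the mesodermal transcription factor Twist, and stay undifferentiated through larval life. Those of the thorax lie on the epithelium of the wing and leg imaginal discs, which supplies them with fibroblast growth factor (FGF), Notch and Wingless signals, and those of the abdomen lie along the body wall. At metamorphosis they fuse into the muscles of the adult fly. In the wing disc, precursors rich in Vestigial give rise to indirect flight muscles and precursors rich in Cut give rise to direct flight muscles.

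The cluster made up 2.19% to 4.99% of the nuclei of a library, with a mean of 3.22% ± 0.97 (SD, n = 8). The 8 libraries held between 86 and 163 myoblast nuclei each, out of 3090 to 5405 nuclei. The summed myoblast UMIs ranged from 97115 to 220605 per library, so a transcript seen 3 times over all myoblasts corresponds to 2.48 CPM (counts scaled to a common total per library), which is the floor used for genes without counts. The median myoblast nucleus had 1092 UMIs and 631 genes. In 7 of 8 libraries the median UMI count was higher in myoblasts than in the other nuclei, by 126.3 on average over all 8 libraries (exact permutation test paired by library, two-sided p = 0.0234). This difference fell short of the threshold under 3 of the other settings, for example 86.4 (exact permutation p = 0.0703) with barcodes found in 1 library only. Library 1 was the exception, with a median of 698 UMIs in myoblasts against 807 in its other nuclei. A barcode also found in another library was carried by 5 myoblast nuclei (0.517%) and by 2231 of the other nuclei (7.47%).

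The name of the cluster was checked on twi, Mef2, zfh1 and Wnt4, the markers given for these cells. At least 1 of the 4 was detected in 84.5% of myoblast nuclei (median 1092 UMIs), in 53.6% of nuclei of muscle cluster 23 (699 UMIs), in 34.4% of nuclei of disc clusters 00, 01 and 05 (1055 UMIs) and in 8.98% of fat body nuclei (898 UMIs). Mef2 alone was found in 4.72% of fat body nuclei. Whether the fat body counts are free RNA or the tissue's own transcripts was not tested. After every nucleus was thinned to 500 UMIs, the shares were 66.2%, 38.9%, 17.9% and 2.76%, and 21 of the 967 myoblast nuclei were too shallow to enter. Hemocytes, the blood cells, reached 86.8% and 65.6% after thinning, and had a higher zfh1 level than myoblasts. With a longer list of 8 myoblast markers, at least 2 of the 8 were found in 39.9% of thinned myoblast nuclei and in 15.8% of thinned hemocyte nuclei. This list adds genes such as Him, stumps and kon and was drawn up with earlier results of these data known. It is therefore no independent check of the name. No marker of the 8 was found in 81 myoblast nuclei (8.38%). Summed over the list, the markers reached 2901, 3618 and 4226 CPM (lowest, median and highest library) in myoblasts, 1367 to 2543 CPM in muscle and 420 to 486 CPM in the discs, so the groups did not overlap.

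Marker lists of other cell types were also summed in the myoblasts. Among them the disc epithelium list summed highest, at 2412 to 4423 CPM against 13090 to 14860 CPM in the disc clusters. The cuticle list reached 724 to 3253 CPM, the fat body list 699 to 2425 CPM and the muscle list 704 to 1478 CPM. Their reference clusters had 317300 to 415200 CPM (cluster 08), 8928 to 147300 CPM and 10050 to 65620 CPM. The hemocyte list reached 245 to 392 CPM against 2749 to 3272 CPM in hemocytes, and the neuron list 53.0 to 203 CPM against 3606 to 7757 CPM in neurons. The glia list reached 188 to 692 CPM against 621 to 1689 CPM in cluster 16, which the authors named mixed and which served as the reference for glia. Of its 4 tested genes 3 were called higher in myoblasts than in all other nuclei. repo, the defining glial factor, was found in 19 myoblast nuclei (1.96%) against 0.265% of all other nuclei, and alrm, an astrocyte gene, in 7 nuclei (0.724%) with its highest level of 28 clusters in cluster 12. Of the disc epithelium markers, nub was found in 1.96% of myoblast nuclei and crb in 6.0%, against 21.7% and 47.3% of disc nuclei. The part of these markers in the results was not tested, apart from a repeat of the vg comparison without nuclei that carried nub, crb or dpp.

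The authors drew the clusters from the same transcripts that are compared here, so every gene level of the cluster against other nuclei is a description of what defines it and carries no p. Counts were summed per library for the cluster and for the nuclei compared with it. A gene was called different with edgeR's quasi-likelihood test at an adjusted p below 0.05 and a log2 fold change of at least 0.54 in size. Where library ranges of genes are said not to overlap, the genes were picked, and the share of all genes without overlap is not given. Against all other nuclei, 873 of 7438 tested genes were called higher in myoblasts (11.7%) and 2397 lower (32.2%), and the median log2 fold change of all genes was -0.28. Against the muscle cluster, 481 of 1520 were higher (31.6%) and 433 lower (28.5%), with a median of 0.17. Against the disc clusters, 501 of 3743 were higher (13.4%) and 538 lower (14.4%), with a median of 0.03. The muscle comparison rests on 7 to 129 muscle nuclei and on 8198 to 234059 summed muscle UMIs per library. Fewer genes passed its filter on low counts, and a gene could pass on its level in 1 set alone. In the smallest muscle sums a single count is a high CPM value, so low muscle levels there are near the floor.

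The 4 markers differed in how far they set the cluster apart. The twi transcript (chromosome 2R, 22985374 to 23048325, BDGP6.54) was rare, with 65.6 corrected counts over all myoblasts, some of which an overlapping antisense-class RNA gene on its strand may share. It was found in 5.69% of myoblast nuclei against 0.754% of other nuclei and 0.379% of fat body nuclei. Its level ranged from 0 through 50.8 to 96.8 CPM over the libraries in myoblasts and from 2.38 through 5.62 to 7.17 CPM in other nuclei, with a log2 fold change of 2.92 (SE 0.37). Of the 28 clusters, cluster 12 had the highest twi level, and 7 of 8 libraries showed the difference while 1 library held no myoblast twi at all. zfh1 (chromosome 3R, 30765926 to 30789202), a zinc finger and homeodomain repressor that holds back muscle differentiation, was found in 66.0% of myoblast nuclei against 8.58% of others and 4.40% of fat body nuclei. Its levels of 1203, 1359 and 1593 CPM lay above those of other nuclei (86.6, 134 and 205 CPM) in every library, with a log2 fold change of 2.99 (SE 0.14), and only 1 cluster, the hemocytes, ranked higher. Wnt4 (chromosome 2L, 7255419 to 7277171), a Wnt ligand, had 195, 375 and 571 CPM against 24.1, 64.3 and 98.9 CPM, a log2 fold change of 2.32 (SE 0.23), and cluster 12 ranked 2 of 28. Mef2 (chromosome 2R, 9913496 to 9958858), the transcription factor that switches on muscle genes, separated the cluster least, with 598, 660 and 706 CPM against 171, 247 and 346 CPM and a log2 fold change of 1.01 (SE 0.14). It was detected in 48.4% of myoblast nuclei and in 22.0% of other nuclei, and 3 clusters had a higher level.

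**Figure D1:**
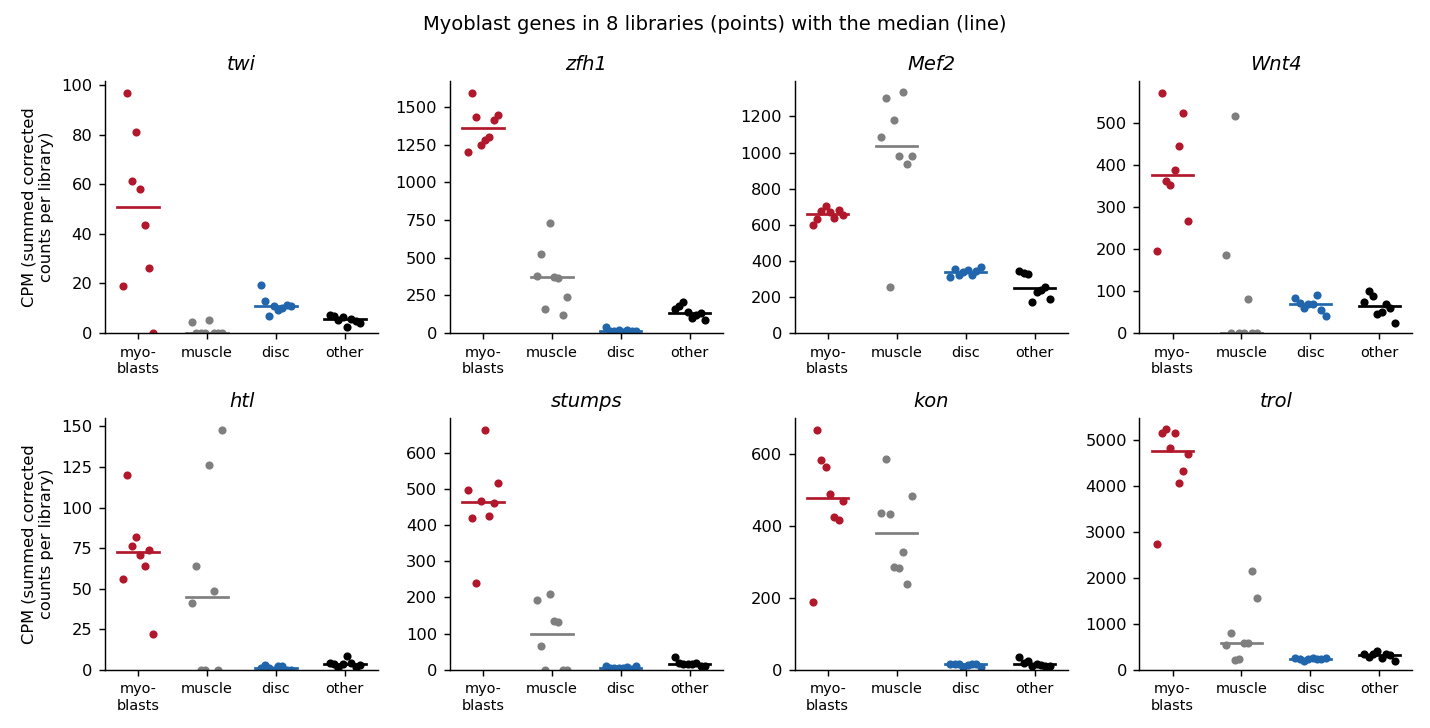
Levels of 8 genes in CPM (linear axes from 0) in myoblasts, the muscle cluster, the disc clusters and all other nuclei. Each point is 1 of 8 libraries and the line is the median over libraries. The zfh1 points of myoblasts lie between 1203 and 1593 CPM and those of the discs between 8.16 and 38.6 CPM, while the Mef2 points of muscle (255 to 1338 CPM) spread around those of myoblasts.

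The 15 genes furthest above all other nuclei included known mesodermal factors, a scaffold protein, an adaptor, a surface protein and 2 long noncoding RNAs. Poxm, a paired-box factor of muscle development, had 43.7, 112 and 189.8 CPM in myoblasts against 0.266, 1.36 and 4.14 CPM, a log2 fold change of 5.78 (SE 0.44). Him (chromosome X, 18209427 to 18210741), an inhibitor of Mef2, had 29.3, 119.9 and 259 CPM against 0.224, 1.21 and 5.88 CPM, a log2 fold change of 5.77 (SE 0.50). Grip, a PDZ scaffold protein, had 216.7, 257 and 351 CPM against 4.53, 7.64 and 12.7 CPM, a log2 fold change of 4.73 (SE 0.21). The 3 genes, picked for their large differences, did not overlap between the groups. None was common, since Poxm was found in 8.89%, Him in 8.07% and Grip in 23% of myoblast nuclei against 0.233%, 0.117% and 0.846% of fat body nuclei. The other leading genes had log2 fold changes from 3.89 to 5.10 and were CG10663, stl, CG9593, SmydA-4, CG43693, kon, stumps, lncRNA:CR45361, CG7888, meso18E, sens-2 and lncRNA:CR44997. The reads of lncRNA:CR45361 cannot be told apart from those of an overlapping microRNA gene. The 10 genes furthest below the other nuclei included cuticle genes and ion channel genes of neurons. CG15308 had 7.45, 35.6 and 61.9 CPM in myoblasts against 463.5, 3028 and 6157 CPM, a log2 fold change of -6.87 (SE 0.53), and the cuticle protein gene Cpr49Af differed by -6.87 as well. The glutamate-gated channel gene GluClalpha and the nicotinic receptor gene nAChRalpha5 were at least 43.7-fold and 39.6-fold lower, and reads of the latter may be shared with an overlapping gene.

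Of 27 factors listed for precursor and muscle identity, 23 could be tested against all other nuclei, 12 were higher and 3 lower, with a median log2 fold change of 0.59. Factors of both kinds of flight muscle were among the higher ones. The homeobox gene NK7.1 had 758, 971 and 1221 CPM against 116, 174 and 269 CPM, a log2 fold change of 2.12 (SE 0.16). The direct flight muscle factor ct had 3635, 3889 and 4977 CPM against 531, 894 and 1323 CPM, a log2 fold change of 1.88 (SE 0.15), and was found in 77.6% of myoblast nuclei. lms, a homeobox factor of lateral muscles, was called higher at 5.41, 19.8 and 36.2 CPM against 0.678, 1.21 and 2.55 CPM. vg and its partner sd, the factors of indirect flight muscle, were higher by 1.11 and 0.86 on the log2 scale, and vg was found in 13.8% of myoblast nuclei. The fibrillar muscle factor salm was lower by 3.40 on the log2 scale, with 0, 10.6 and 29.4 CPM against 62.7, 102 and 166 CPM. Of the 27 factors, 6 had their highest level of all 28 clusters in cluster 12 (22.2%), namely twi, Him, lms, Six4, meso18E and NK7.1, beside 263 of all 12610 genes (2.09%).

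**Figure D2:**
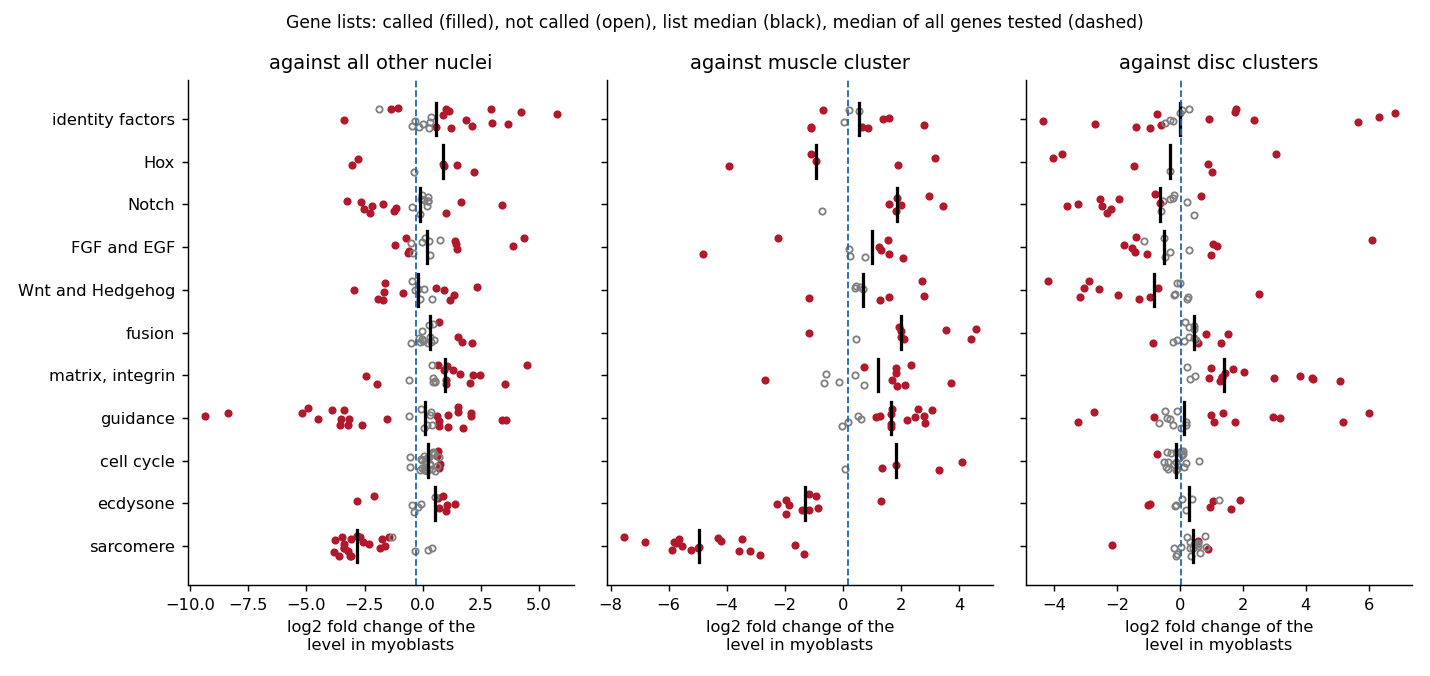
Log2 fold changes of the tested members of 11 gene lists in myoblasts against all other nuclei, the muscle cluster and the disc clusters. Each point is 1 gene, filled where it was called and open where it was not, the black bar is the median of the list and the dashed line the median of all genes tested. The sarcomere list sits lowest against muscle, with a median of -4.97, and the matrix list has medians of 0.97 against all other nuclei and 1.38 against the discs.

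The receptor and transducers of mesodermal FGF signalling were high in the myoblasts, and its ligands pyr and ths were lower than in the discs. htl, the FGF receptor of mesoderm, had 21.9, 72.4 and 119.9 CPM in myoblasts against 1.11, 3.53 and 8.21 CPM in other nuclei, a log2 fold change of 3.88 (SE 0.38). stumps, the adaptor that FGF receptors signal through, had 240.2, 464 and 663 CPM against 9.64, 16.4 and 35.5 CPM, a log2 fold change of 4.38 (SE 0.26), and was found in 29.7% of myoblast nuclei against 0.408% of fat body nuclei. Both genes had their highest level of 28 clusters in cluster 12, as did sty, the feedback inhibitor sprouty, with a log2 fold change of 1.48. pnt, a transcription factor activated by the pathway, was higher by 1.41. The ligands of Htl differed from the disc clusters in the other direction, pyr with 18.2, 52.6 and 134 CPM against 108, 152 and 203 CPM (log2 fold change -1.41, SE 0.24) and ths with 25.9, 78.1 and 107 CPM against 120.3, 149 and 162 CPM (-1.05, SE 0.18). bnl, the FGF ligand of the tracheal receptor, was instead higher than in the discs by 1.03, a call lost without library 1, 3 or 7. The epidermal growth factor receptor Egfr had 364, 456 and 532 CPM in myoblasts against 1108, 1181 and 1288 CPM in the discs, a log2 fold change of -1.42 (SE 0.07), and its ligand vn differed by -1.79. Of the 16 genes on the FGF and Egfr list, 5 were higher and 4 lower than in all other nuclei (median 0.18), and of 14 tested against the discs 4 were higher and 5 lower (median -0.51).

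For Notch signalling, the receptor was detected in most myoblast nuclei while its ligands and 5 genes of the Enhancer of split complex, which Notch switches on, were lower than in other nuclei. N itself had 1947, 2357 and 2655 CPM in myoblasts and 1018, 1491 and 2445 CPM in all other nuclei, and was not called different. The ligand gene Ser had 33.1, 73.9 and 137 CPM against 801, 910.1 and 1006 CPM in the discs, a log2 fold change of -3.60 (SE 0.16), and the ligand gene Dl had 197, 284 and 505 CPM against 1272, 1331 and 1450 CPM, a log2 fold change of -2.20 (SE 0.13). Neither overlapped between the groups. fng, which encodes the glycosyltransferase that tunes which ligand Notch answers to, had 796, 975 and 1323 CPM against 173, 257.5 and 379 CPM in all other nuclei, a log2 fold change of 1.64 (SE 0.16). The 20 tested genes of the Notch list comprised 3 higher and 8 lower than in all other nuclei (median -0.10), and the lower ones included numb and 5 genes of the Enhancer of split complex. 1 gene of that complex went the other way, E(spl)m6-BFM, with 7.31, 35.4 and 100.2 CPM against 0.687, 3.43 and 6.27 CPM and a log2 fold change of 3.41 (SE 0.47). Beside fng it was the 1 other gene of the list with its highest level in cluster 12.

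In the Wnt and Hedgehog pathways, 5 of 17 genes were higher and 6 lower than in all other nuclei (median -0.19). ptc, the Hedgehog receptor, had 759, 1096 and 1463 CPM against 216, 313 and 540.5 CPM in all other nuclei, a log2 fold change of 1.36 (SE 0.17), and ci, the transcription factor of the pathway, was higher by 1.19 with its highest level of 28 clusters in cluster 12. The ligand gene hh had 13.3, 75.9 and 118 CPM against 506, 533.5 and 613 CPM in the discs, a log2 fold change of -3.07 (SE 0.23). wg, which encodes Wingless, had 0, 2.05 and 28.0 CPM against 82.9, 108 and 117 CPM, a log2 fold change of -4.19 (SE 0.36). Against the discs, 1 of 16 tested genes of the list was higher, which was Wnt4 at 2.5 on the log2 scale, and 9 were lower (median -0.83).

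Integrins, dystroglycan and basement membrane genes formed the list with the highest median against all other nuclei and against the discs. trol, which encodes the basement membrane proteoglycan perlecan, had 2728, 4763 and 5236 CPM in myoblasts against 194, 331 and 418 CPM in all other nuclei, a log2 fold change of 3.53 (SE 0.17). It was found in 86.6% of myoblast nuclei, 22.3% of all other nuclei and 34.8% of fat body nuclei. kon, a transmembrane protein of muscle attachment, had 189, 479 and 669 CPM against 10.0, 15 and 35.5 CPM (log2 fold change 4.47, SE 0.29), and Dg, which encodes dystroglycan, had 942, 1006 and 1453 CPM against 122, 166 and 311 CPM (2.18, SE 0.16). The integrin alpha subunit gene scb was higher by 2.45 and the integrin genes mew and mys by 1.01 and 0.66. In all, 12 of 20 matrix genes were higher and 2 lower than in all other nuclei (median 0.97), and 5 had their highest level of 28 clusters in cluster 12 (25.0%), namely trol, Dg, Dys, scb and kon. The collagen gene Col4a1 and the matrix gene SPARC, both known from fat body and hemocytes, were called higher against the discs, Col4a1 by 4.19. SPARC had 99.95, 154 and 242 CPM against 6.89, 11.2 and 19.1 CPM (log2 fold change 3.80, SE 0.22), was found in 19.8% of myoblast nuclei and in 32.8% of fat body nuclei, and the part of free fat body RNA in this difference was not tested.

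The adhesion and guidance genes went both ways, with 12 of 32 higher and 13 lower than in all other nuclei (median 0.11). beat-IIIc, an immunoglobulin-domain surface protein of the Beaten path family, had 2566, 3026 and 3710 CPM against 94.5, 196 and 380.0 CPM, a log2 fold change of 3.56 (SE 0.19), and was found in 63.4% of myoblast nuclei against 1.25% of fat body nuclei. side, the founding member of the family of Beaten path receptors, had 937, 1218 and 1812 CPM against 37.7, 88.7 and 163 CPM (3.41, SE 0.23). The 2 netrin genes NetA and NetB were higher by 2.06 and 1.5 on the log2 scale and the netrin receptor gene unc-5 by 1.5, and NetB overlaps another gene on its strand. Of the same families, beat-VI and beat-IIIb had no counts in myoblasts, at least 13.6-fold and 6.80-fold below all other nuclei.

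The fusion genes were partly expressed already, whereas sarcomere genes were low. mbc, an activator of the GTPase Rac in myoblast fusion, had 275, 360 and 436 CPM against 41.5, 62.1 and 104 CPM in all other nuclei, a log2 fold change of 2.11 (SE 0.17). blow, an actin regulator of fusion, was higher by 1.71, and hbs, a surface receptor of fusion-competent myoblasts, was higher by 0.71 with 244.7, 270.0 and 353 CPM against 89.9, 129 and 226 CPM, where an overlapping noncoding RNA may share its reads. These and Rac2 were the 4 of 16 tested fusion genes called higher, and the other 12 were not called (median 0.31). Of 23 sarcomere genes 19 were lower than in all other nuclei (median -2.80). Mhc, the muscle myosin heavy chain, had 35.9, 70.2 and 163 CPM in myoblasts and 103, 360 and 1002 CPM in all other nuclei. Against the discs, which hold no muscle fibres, 2 of 19 sarcomere genes were higher and 1 lower. Mhc was found in 21.7% of myoblast nuclei, 22.8% of disc nuclei and 21.0% of fat body nuclei, so its share in myoblasts was not above that background.

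Most cell cycle genes were not called against all other nuclei, and the ecdysone genes called went both ways. CycE, the cyclin of S phase entry, had 99.2, 165 and 193 CPM in myoblasts against 47.0, 71.0 and 138 CPM (log2 fold change 0.72, SE 0.19). With Cdk4, Dp and CycA it made 4 of 29 cell cycle genes called higher than in all other nuclei (median 0.22), where Cdk4 lost its call without library 4 or 7 and CycA was below the fold limit with DESeq2 size factors. stg, which encodes the phosphatase that starts mitosis, had 161, 295 and 470.5 CPM against 97.6, 188.5 and 432 CPM and was not called. Of 13 ecdysone response genes 6 were higher and 2 lower (median 0.54), among them the receptor gene EcR at 0.65 and Sox14, a target gene of the hormone at metamorphosis, at 1.03. Eip93F, a late factor of metamorphosis, was lower by 2.08.

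Compared with the differentiated muscle cluster, the myoblasts had more transcript of most tested Notch, fusion and cell cycle genes, and less of the contractile apparatus. N had 1947, 2357 and 2655 CPM in myoblasts and 35.9, 125 and 1327 CPM in muscle, a log2 fold change of 2.98 (SE 0.47). hbs had 0, 0 and 88.1 CPM in muscle, with a log2 fold change of 4.58 (SE 0.47), and the small muscle sums limit what a level of 0 shows. rols, an adaptor in fusing muscle founder cells, had 402, 494 and 653 CPM against 0, 23.1 and 356 CPM (3.54, SE 0.43). Of 9 tested fusion genes 7 were higher and 1 lower (median 2.0), and of 7 Notch genes 6 were higher (median 1.87). The data held 18 fusion genes and 22 Notch genes. Over all tested genes 31.6% were higher and 28.5% lower. Genes high in myoblasts could pass the filter on that level alone, so these counts describe only the genes that passed. Only 5 of 30 cell cycle genes could be tested, and 4 of these were higher. stg was higher by 4.10, with 0, 2.80 and 239 CPM in muscle, and CycA by 3.31. The transcription factor gene sens-2 and the immunoglobulin-domain gene fipi had no counts in muscle and were at least 45.3-fold and 36.8-fold higher in myoblasts. sens-2 had 198, 219 and 335 CPM there and was found in 12.3% of nuclei.

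All 18 tested sarcomere genes were lower in myoblasts than in muscle (median -4.97). The titin-like gene sls had 144, 203 and 289 CPM against 2280, 7936 and 15130 CPM, a log2 fold change of -5.65 (SE 0.40), and the Z-disc gene Zasp66 had 38.7, 70.1 and 204 CPM against 1681, 15760 and 17180 CPM (-7.53, SE 0.56). The potassium channel gene Sh had 0.854, 11.5 and 62.1 CPM against 2658, 5251 and 14820 CPM (-8.79, SE 0.64), though reads of Sh may be shared with an overlapping gene, and Shab, which encodes another potassium channel, was at least 460.0-fold lower. Mef2 was lower in myoblasts in 7 of 8 libraries, with 255, 1035 and 1338 CPM in muscle and a log2 fold change of -1.09 (SE 0.26). zfh1 was higher in myoblasts by 1.4 (SE 0.27), with 122, 370.2 and 730.1 CPM in muscle, and Wnt4 by 1.59 (SE 0.55), with 0, 0.422 and 516 CPM. twi and Him were too rare to be tested, at 65.6 and 149.9 counts in myoblasts against 1.99 and 1.00 in muscle, which makes them at least 10.2-fold and 23.4-fold higher. kon was not called different from muscle (381.6 CPM at the median library), and htl, which was also too rare to be tested, had 0, 44.9 and 148 CPM in muscle. The muscle comparison moves with the scaling, since its median over all genes was 0.36 with DESeq2 size factors. Of the 10 tested ecdysone genes 9 were lower in myoblasts (median -1.29) and ftz-f1 was higher. EcR, Eip75B, Eip78C, E23 and ftz-f1 lost their calls with the replicate block.

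Compared with the disc clusters, on whose epithelium the thoracic precursors lie, zfh1 had the largest difference of the 3 markers that could be tested, with 8.16, 15.3 and 38.6 CPM in the discs and a log2 fold change of 6.32 (SE 0.20). stumps had 2.83, 5.59 and 10.3 CPM there (6.10, SE 0.23) and trol 191, 233 and 249.7 CPM (4.24, SE 0.12). ct had 567, 748 and 1205 CPM (2.34, SE 0.13) and Mef2 311, 341 and 366 CPM (0.91, SE 0.06). None of these 5 genes, picked for their role or their difference, overlapped between the groups. Of 16 matrix genes 13 were higher in myoblasts (median 1.38), and SmydA-4, Poxm and Him were among the 5 genes with the largest difference, at 7.73, 7.52 and 6.83. Epithelial genes were lower in the myoblasts, where the cadherin gene Cad99C had 0, 1.02 and 18.4 CPM against 260, 303 and 348 CPM (-5.95, SE 0.30) and the septate junction gene Fas3 671, 924 and 1683 CPM against 6007, 6712 and 7188 CPM (-2.75, SE 0.14). vg was not called different, at 66.6, 189 and 258 CPM in myoblasts and 141, 195 and 282.5 CPM in the discs.

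The Hox genes, which mark the body segment a cell belongs to, were read nucleus by nucleus, where a gene counted as detected from a corrected count of 0.5. Antp, the Hox gene of the second thoracic segment, was found in 426 of the 967 myoblast nuclei, Scr, that of the first thoracic and labial segments, in 165, abd-A in 130, Ubx, that of the third thoracic and first abdominal segments, in 115 and the posterior gene Abd-B in 82. By the same limit, the shares in fat body nuclei were 0.992% for Antp, 0.0875% for Scr, 4.64% for abd-A, 0.787% for Ubx and 0.933% for Abd-B, against 44.1%, 17.1%, 13.4%, 11.9% and 8.48% of myoblast nuclei. No Hox gene of the 5 was found in 255 nuclei (26.4%), exactly 1 in 519 (53.7%), 2 in 180 (18.6%) and 3 in 13 (1.34%). The shares varied between libraries, for Antp from 34.1% through 43.4% to 51.6% and for Ubx from 7.74% through 11.7% to 21.6%, with library 8 highest for Ubx and library 7 highest for abd-A at 21.8%. As summed levels, Scr had 379, 532 and 783 CPM in myoblasts against 61.3, 87.9 and 154 CPM in all other nuclei (2.20, SE 0.19), with its highest level of 28 clusters in cluster 12 and reads that may be shared with overlapping noncoding RNA genes. Ubx had 288, 549 and 1428 CPM against 426, 717 and 993 CPM and was not called. abd-A was higher than in the discs by 3.03 (SE 0.24), with 119, 242 and 301 CPM against 17.3, 22.4 and 47.3 CPM, and Ubx lower by 1.47 (SE 0.23).

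Some nuclei carried more than 1 of these genes. Of 130 abd-A nuclei, 35 also had Abd-B (26.9%, and 42.7% of the Abd-B nuclei), 23 had Ubx and 14 had Antp. Of 165 Scr nuclei, 76 also had Antp (46.1%), close to the 43.6% of the 802 nuclei without Scr. Ubx was found in 8 Scr nuclei (4.85%, against 13.3% of the others) and abd-A in 5 (3.03%, against 15.6%). Since deeper nuclei show more genes, the shares were taken again after thinning to 500 UMIs. Antp was then found in 5.43% of 129 abd-A nuclei and in 37.2% of the 817 others, and Abd-B in 17.8% and 4.41%. ct differed between the same groups, at 40.3% of abd-A nuclei and 71.4% of the others. Scr nuclei showed the opposite for ct, with 92.7% of 164 nuclei against 61.8% of the 782 others. Antp was found in 31.7% of these Scr nuclei and in 33.1% of the others. Nuclei are not replicates and no test was made on these shares.

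**Figure D3:**
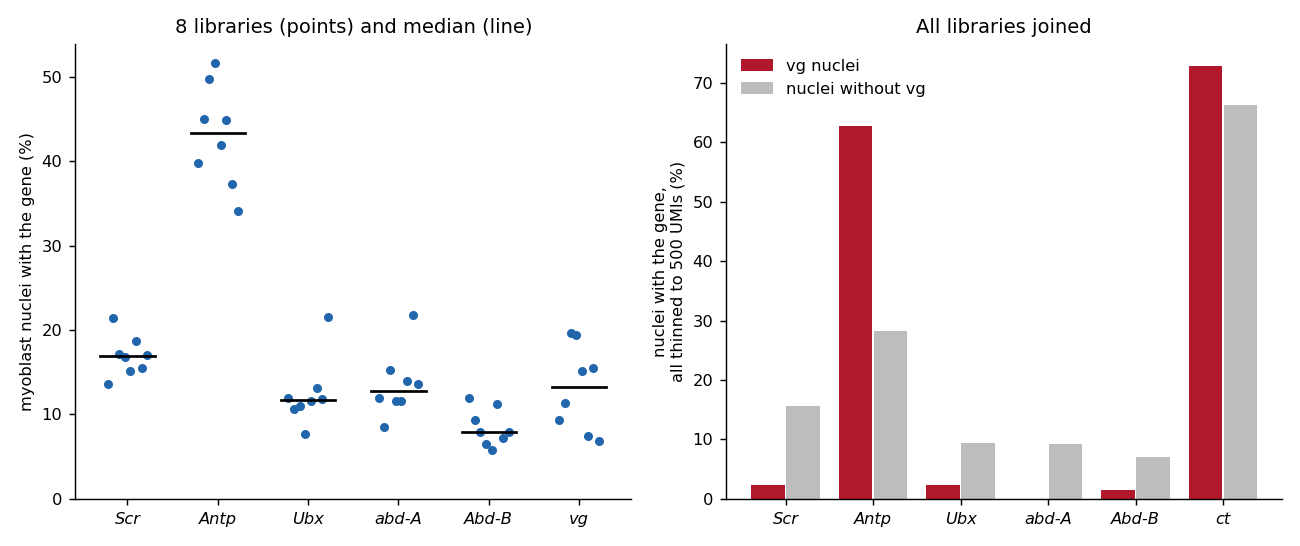
Left, percent of myoblast nuclei in which 5 Hox genes and vg were detected, 1 point per library (n = 8) with the median as a line. Right, percent of vg nuclei and of the other myoblast nuclei with each gene after thinning to 500 UMIs. Antp is the most frequent gene on the left (34.1% to 51.6%), and on the right it is found in 62.8% of vg nuclei and 28.2% of the others while abd-A is found in 0 of 129 vg nuclei.

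vg (chromosome 2R, 12884201 to 12899385) was detected in 133 myoblast nuclei, 6 to 32 per library, and in 0.117% of fat body nuclei. At these depths a nucleus that expresses a gene can lack a UMI of it. Nuclei called without vg, and below without Ubx or roX, can therefore include nuclei that express the gene. Of the vg nuclei, 111 also had Antp (83.5%), against 37.8% of the 834 nuclei without vg. After thinning, Antp was found in 62.8% of 129 vg nuclei and in 28.2% of 817 others, Scr in 2.33% and 15.7%, and Ubx in 2.33% and 9.42%. abd-A was found in 0 of 129 vg nuclei, which allows up to 2.33% of nuclei with a UMI at this depth by counting error alone, and in 9.30% of the others. ct was found in 72.9% of the vg nuclei and in 66.2% of the others. The median depth was 1234 UMIs in vg nuclei and 1071 in the others, higher in 7 of 8 libraries, and the part of depth in these shares beyond the thinning was not tested.

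The rule that chose the cluster does not use this split, so vg nuclei and the other myoblasts were compared on sums per library with vg itself left out. The question is what else distinguishes precursor nuclei in which the flight muscle factor was detected. Of 1147 tested genes, 64 were higher in vg nuclei (5.58%) and 103 lower (8.98%) at an adjusted p below 0.05, with edgeR's quasi-likelihood test and Benjamini-Hochberg adjustment, and the median log2 fold change of all genes was 0.02. All adjusted p-values that follow come from this test. sd, the DNA-binding partner of Vestigial, had 1458, 2225 and 3224 CPM in vg nuclei and 829, 1022 and 1265 CPM in the others, a log2 fold change of 1.09 (SE 0.14, adjusted p = 6.255e-06). fng had 1425, 1964 and 2565 CPM against 707, 853 and 1271 CPM (1.17, SE 0.15, adjusted p = 7.805e-06), and the SoxD factor gene Sox102F had 177, 359 and 524 CPM against 90.1, 133 and 168 CPM (1.64, SE 0.20, adjusted p = 4.384e-06). In these 3 genes all 8 libraries of vg nuclei lay above all 8 of the others. The zinc finger gene rn, which is on the disc epithelium marker list and whose reads may be shared with an overlapping long noncoding RNA, had 362, 1396 and 3216 CPM against 7.76, 133 and 503 CPM (3.25, SE 0.41, adjusted p = 5.889e-06).

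Mef2, the Notch receptor gene and some fusion genes also rose in vg nuclei. Mef2 had 700.5, 950.0 and 1550 CPM against 560.5, 603 and 678 CPM, higher in 8 of 8 libraries (0.64, SE 0.13, adjusted p = 0.00151), and N had 2599, 3116 and 4591 CPM against 1902, 2165 and 2474 CPM (0.60, adjusted p = 0.00151). The fusion list had 4 of 8 tested members higher and 1, Rac2, lower (median 0.45). hbs rose by 1.03 (adjusted p = 0.00372) and rols by 0.89 (adjusted p = 0.00283), while mbc at 0.73 lost its call with the replicate block and without library 1, 2, 3, 6 or 8, and rst at 0.69 lost it without library 1, 4, 5 or 8. Without the filter on low counts Mef2, N, hbs, rols and Antp kept their direction and lost the call. Of 7 Notch genes 3 were higher (fng, N and Dl) and kuz was lower by 0.37, a call lost with the block and without library 3 or 8 (median 0.32). Dl at 1.01 lost its call without library 2 or library 5. Antp had 704, 2515 and 4346 CPM against 947, 1093 and 2207 CPM, higher in 6 of 8 libraries (0.94, SE 0.24, adjusted p = 0.00925). trol and hth, at 0.42 and 0.44, reversed their sign without the filter on low counts. bnl at 2.30 and Sp1 at 1.82 each lost the call when 1 library was left out, for bnl library 3 or 7 and for Sp1 library 4.

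**Figure D4:**
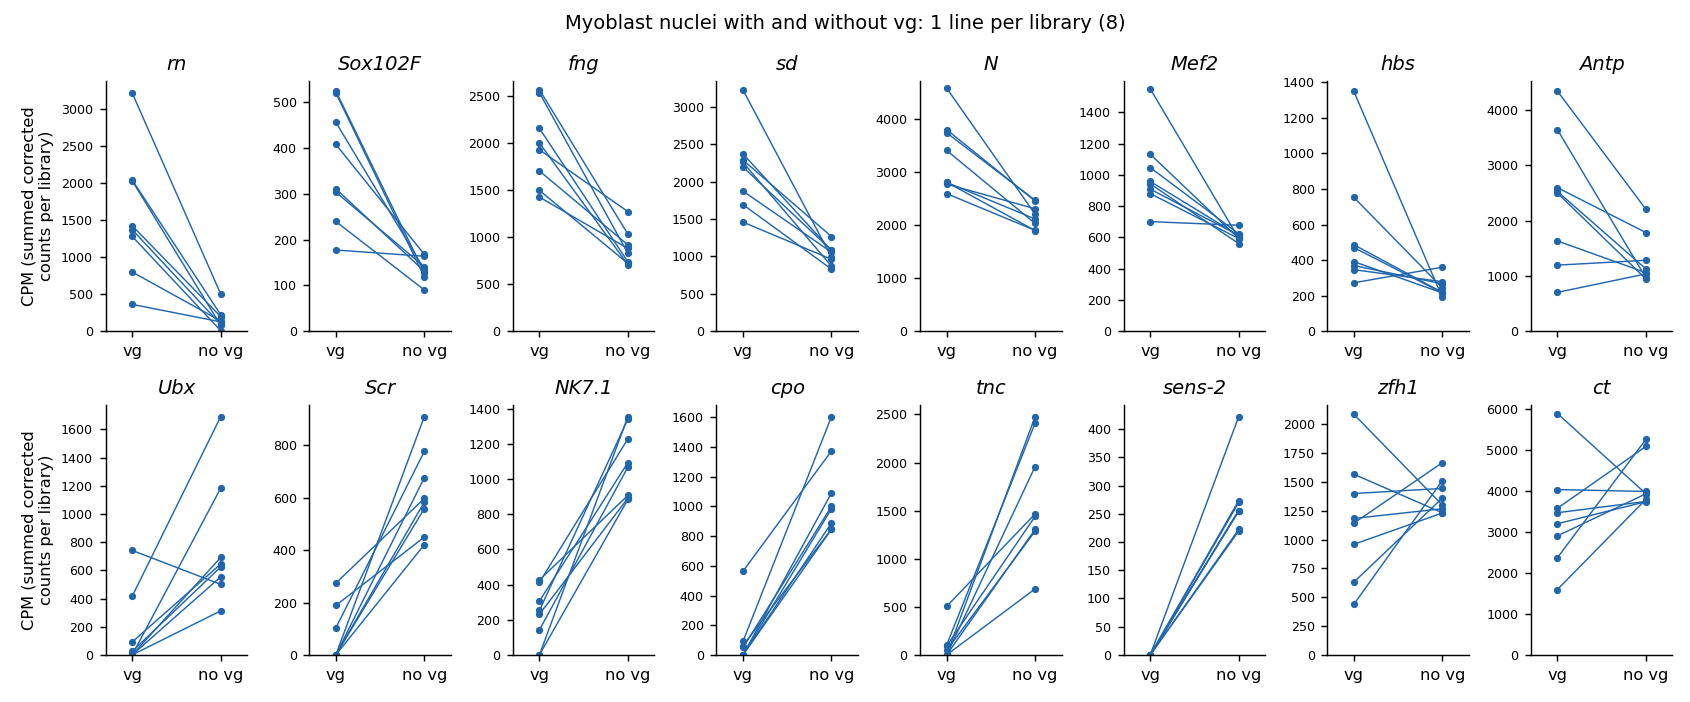
Levels of 16 genes in CPM in myoblast nuclei with vg (left) and without vg (right), 1 line per library (n = 8). sd, fng, Sox102F and Mef2 are higher with vg on every line, NK7.1 and Scr are lower with vg on every line, and zfh1 and ct have lines in both directions.

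Among the genes that fell in vg nuclei, sens-2 had no counts there against 291 in the other nuclei, which is at least 16.4-fold lower. tnc, which encodes the matrix protein tenectin, had 0, 23 and 504 CPM against 686, 1453 and 2477 CPM (-4.64, SE 0.50, adjusted p = 9.346e-07). cpo, an RNA-binding protein gene, had 0, 25.0 and 564 CPM against 847, 992 and 1605 CPM (-4.33, SE 0.44, adjusted p = 5.387e-07). The identity factor NK7.1 had 0, 242 and 426 CPM against 884, 1080 and 1354 CPM (-2.13, SE 0.27, adjusted p = 5.889e-06), and the T-box gene bi 0, 275.5 and 1323 CPM against 1018, 1971 and 3866 CPM (-2.37, SE 0.40, adjusted p = 0.000196). Scr had 0, 0 and 274 CPM against 420.3, 590.2 and 909.5 CPM (-3.05, adjusted p = 2.675e-05) and Ubx fell by 2.06 (adjusted p = 0.0133). Wnt4 fell by 1.01 (adjusted p = 0.0495), a call that was lost when any 1 of libraries 2, 3, 4, 5, 6 and 8 was left out. The muscle gene zormin fell by 1.73 (adjusted p = 0.0064) and Egfr by 0.62, though Egfr lost its call in every fit that left out a library.

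The precursor genes zfh1 and ct were not called in either direction. zfh1 had 438, 1163 and 2086 CPM in vg nuclei and 1230, 1329 and 1666 CPM in the others (-0.14, adjusted p = 0.673). ct had 1596, 3336 and 5891 CPM against 3740, 3933 and 5261 CPM (-0.30, SE 0.16, adjusted p = 0.274). twi and Him were too rare to be tested, and Him had 0, 246 and 877 CPM in vg nuclei and 27.3, 67.6 and 166 CPM in the others, higher in 7 of 8 libraries. abd-A and Abd-B had 0 and 2.84 counts in vg nuclei against 270.3 and 306.8 counts and were at least 15.3-fold and 17.3-fold lower. The disc epithelium list, of which 2 of 6 tested members were higher and 1 lower, summed to 2615, 5152 and 5750 CPM in vg nuclei and 2220, 2776 and 4278 CPM in the others. In a repeat without nuclei that carried nub, crb or dpp (110 against 749 nuclei), chosen after seeing the data, 49 genes were higher and 85 lower, and Egfr, trol, Wdr62 and Dg were the named genes that lost the call. rn and Sp1, which are on the disc epithelium list, stood at 3.26 and 1.83 in this repeat and kept theirs.

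Ubx (chromosome 3R, 16656623 to 16734426) was detected in 115 myoblast nuclei, 10 to 19 per library, whose median depth was 1241 UMIs against 1071 and higher in 7 of 8 libraries. Of 1049 tested genes, 26 were higher (2.48%) and 37 lower (3.53%) than in the 852 nuclei without Ubx. sens-2 rose from 65.0, 151 and 186 CPM to 453.5, 837 and 1185 CPM, higher in 8 of 8 libraries without overlap (2.48, SE 0.23, adjusted p = 1.052e-06), and was found in 41.7% of Ubx nuclei and 8.33% of the others. zormin, a titin-like Z-disc protein gene, had 312, 858 and 1249 CPM against 96.9, 235 and 299.9 CPM (1.86, SE 0.27, adjusted p = 0.000388). fipi was higher by 2.52 (adjusted p = 0.0051), the actin nucleator gene spir by 1.4 (adjusted p = 0.00149) and the integrin gene mew by 1.07 (adjusted p = 0.00355).

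The genes that fell in Ubx nuclei included 3 of 4 tested Hox genes. Antp had 438, 695 and 862 CPM against 1121, 1355 and 2805 CPM, lower in 8 of 8 libraries without overlap (-1.22, SE 0.22, adjusted p = 0.00152). Scr fell by 2.14 (adjusted p = 0.0029) and Abd-B by 2.26 (adjusted p = 0.00684). abd-A was not called, at 60.4, 250.3 and 373 CPM against 124, 233 and 304 CPM (0.16, SE 0.31, adjusted p = 0.817). The Wingless receptor gene fz2 had 243, 608 and 965 CPM against 1099, 1505 and 1796 CPM (-1.28, SE 0.22, adjusted p = 0.00136). Of 14 guidance genes 3 fell, among them NetB by 1.54 (adjusted p = 0.0029). wb, a laminin subunit gene, fell by 1.43 and the matrix gene Ppn by 1.46, and Ppn lost its call with the replicate block and without any 1 of libraries 2 to 7. The call was lost for stumps (-0.96) without library 2, 5, 6, 7 or 8, for rn (-2.08) without library 1, 2, 4, 6 or 7 and for robo2 (-0.76) without library 2, 3, 4, 6 or 7.

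Each library pooled male and female larvae, and the myoblasts were split by roX1 and roX2, the noncoding RNAs of the complex that raises X-chromosome transcription in males. Among the 939 nuclei with at least 500 UMIs, the summed roX count was below 0.5 in 291 (31.0%), between 10 and 20 in 135 (14.4%) and at least 20 in 333 (35.5%). It lay between 0.5 and 1 in 90 nuclei (9.58%), which entered neither group. With a sum of at least 1 taken as roX nuclei, 558 nuclei were compared with the 291 below 0.5, at median depths of 1104 and 1105 UMIs. The share of UMIs from 2027 X-linked genes, roX left out, was 18.86% ± 0.54 in roX nuclei and 21.98% ± 0.30 in nuclei without roX (SD, n = 8). It ranged from 18.11% to 19.73% and from 21.28% to 22.28%, so the ranges did not overlap, and was lower in 8 of 8 libraries by 3.12 percentage points (SD 0.65, exact permutation test paired by library, two-sided p = 0.00781, the smallest that 8 pairs allow). With at least 1000 UMIs per nucleus the difference was -2.67 percentage points, in 7 of 8 libraries (exact permutation p = 0.0156).

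**Figure D5:**
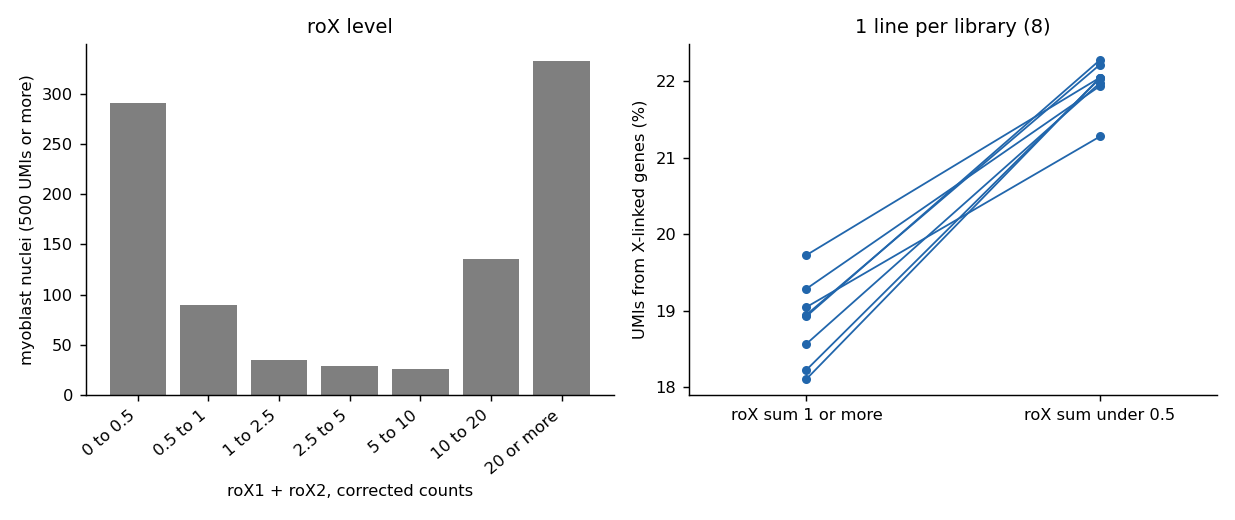
Left, number of myoblast nuclei with at least 500 UMIs by their summed roX1 and roX2 count. Right, percent of UMIs from X-linked genes in roX nuclei and in nuclei without roX, 1 line per library (n = 8), on an axis that does not start at 0. Each line rises, from between 18.11% and 19.73% to between 21.28% and 22.28%.

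Few single genes differed between roX nuclei and nuclei without roX. Of 1123 tested genes, 14 were lower in roX nuclei (1.25%) and 4 higher (0.356%), and 12 of the 14 lie on the X chromosome, as do 234 of the tested genes. Fas2, a cell adhesion gene on the X, had 3067, 3751 and 5190.0 CPM in roX nuclei and 5198, 6924 and 9759 CPM in the others (-0.80, SE 0.13, adjusted p = 0.00116) and was the 1 member of the 11 lists to be called. The long noncoding RNA gene lncRNA:CR44999, which overlaps other genes on its strand, fell by 1.24 (adjusted p = 0.000385) and the X-linked gene CBP by 1.14 (adjusted p = 0.00653), the latter not without library 3. The 2 autosomal genes that were lower were Kank at -1.58, not called without library 2 or 4, and bab2 at -0.75. Prosap, which encodes a synaptic scaffold protein and lies on 2R, rose from 360.2, 515 and 799 CPM to 934, 1950.0 and 2567 CPM, without overlap (1.84, SE 0.24, adjusted p = 0.000167), and RapGAP1 rose by 1.05 (adjusted p = 0.000694). The median log2 fold change was -0.19 over the X-linked genes, 79.1% of them below 0, and 0.03 over the autosomal genes, 44.2% of them below 0. When the nuclei were limited to at least 1000 UMIs, 2 genes were called higher and 4 lower.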

How the data were processed

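Nuclei of 8 libraries of w1118 larvae were profiled by droplet RNA sequencing. The authors counted UMIs with Cell Ranger 7.1.0 on genome build BDGP6 (the submitters' processing notes), subtracted estimated free RNA with DecontX, removed low-quality nuclei and doublets, used Harmony to join the libraries and drew clusters. The deposited values are therefore expected counts, estimated UMI counts that need not be whole and are not scaled to a common total. The cluster of each nucleus is deposited in its own table, and no doublet caller was run again. The files do not pair library numbers with sample names. Doublets that remain were not examined.

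Corrected counts were summed per library and set of nuclei, rounded to whole numbers and tested with edgeR 4.0.16 (quasi-likelihood, TMM, filterByExpr, R 4.3.3, limma 3.58.1), with DESeq2 1.42.0 as an alternative, with Python 3.11.15 for tables and figures (scipy 1.17.1, numpy 2.4.6, matplotlib 3.10.9, pandas 2.3.3). A library entered a comparison with at least 5 nuclei in each set. CPM were computed from the sums. Gene positions, chromosomes and overlaps came from the BDGP6.54 annotation (Ensembl release 115). For genes missing from it, such as CG9650, the chromosome came from RefSeq's gene table and overlaps were not checked. For comparisons across depths, nuclei were thinned to 500 UMIs. UMIs mark molecules, and shares and floors (3 counts) cover counting error only. The tests were tried on simulated data. p-values measure the spread between these libraries. The labels give the size of each pool of larvae but not whether the pools were separate.

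The members, the 11 gene lists and the tests were chosen with earlier results of these data known, and 231 of 236 listed names were used. Named genes were the 4 markers, the 15 highest and 10 lowest called genes with at least 50 CPM per cluster comparison, the 10 highest and 10 lowest per comparison within the cluster, and up to 6 called members per list with the ligand, receptor or defining member where needed. Six4, Rac2, kuz and other members outside this rule, and genes of the label check, were named after their values were seen.

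The sums compared come from the same library, so replicate numbers pair them. The median correlation of their deviations was 0.0711 to 0.156 for the same number and -0.0339 to -0.00213 for other numbers. The main fit had no block. Alternatives were the replicate block, DESeq2 size factors, no filter on low counts, other depth and barcode limits, a log2 fold limit of 1 and each library left out. The 2 alternatives chosen after seeing the data were a stricter roX limit (at least 5 against under 2.5) and the vg comparison without nub, crb and dpp nuclei. Sequences of promoters and proteins were not analysed here.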

Additional observations from a re-analysis of the deposited data

Results flagged for a closer look

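Over the 39 groups of 8 libraries tested for a library far from the others (a gap to the nearest library, relative to the range, above Dixon's 95% critical value), 3 stood out, and chance alone flags about 1 group in 20. The median depth of myoblast nuclei was 698 UMIs in library 1, below the other 7 libraries. The summed level of the glia marker list in myoblasts was 691.8 CPM in library 6, above the other libraries. The summed level of the cuticle marker list in myoblasts was 3253 CPM in library 8, above the other libraries. The part of these libraries in the results is seen in the fits that left each of them out.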

How the results depend on the processing

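Over the named genes and all alternatives, 6447 values kept their direction and their side of the threshold, 274 lost the call, 4 gained it and 4 reversed. The reversed ones were all in the vg comparison: Wdr62 (3.51) at -0.19 with DESeq2 and at -0.19 to 3.69 with each library left out, trol at -0.04495 and hth at -0.029 without the filter on low counts. The difference in UMIs per nucleus missed the threshold with at least 200 genes (83.6, exact permutation p = 0.102), with barcodes found in 1 library (86.4, p = 0.0703) and without the clusters of mixed identity (84.8, p = 0.0625), and the share of myoblasts was 4.27% without these clusters. With a fold limit of 1, 400 genes were higher than in all other nuclei and 261 higher than in the discs, fewer by construction. Without the filter, muscle gave 1185 higher and 1093 lower, the discs 975 lower, vg 36 and 506, Ubx 70 and 244, and roX 93 higher. DESeq2 gave 43 higher for Ubx and 7 and 24 for roX. The roX comparison gave 2 higher and 4 lower with at least 1000 UMIs, 8 higher with the stricter roX limit, chosen after seeing the data, and 7 higher with the replicate block. The causes were not tested.

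With the replicate block the counts of higher and lower genes were 844 and 2392 against all other nuclei, 419 and 335 against muscle, 493 and 537 against the discs, 54 and 90 for vg, 26 and 37 for Ubx and 7 and 13 for roX, and 15 named genes lost the call. With at least 200 genes the muscle comparison gave 656 and 361.

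When each library was left out in turn, the share of myoblasts was 2.97% to 3.37%, the depth difference 104.5 to 159.9 UMIs and 55.9 to 76.9 genes, and the X share difference -3.25 to -3.01. The counts of higher and lower genes ranged over 693 to 938 and 2165 to 2459 against all other nuclei, 427 to 502 and 353 to 457 against muscle, 450 to 491 and 532 to 571 against the discs, 44 to 57 and 73 to 91 for vg, 17 to 30 and 26 to 41 for Ubx, and 3 to 5 and 8 to 14 for roX. Rare genes such as twi, with 65.6 counts, limit what depth can show within the cluster.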

Other observations

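Wdr62 (chromosome 2L, 1884622 to 1944289, BDGP6.54) was called higher in vg nuclei at 3.51 on the log2 scale (edgeR's quasi-likelihood test, adjusted p = 0.0326), and library 1 decided the value. Its level in vg nuclei was 197500 CPM in library 1 and 796 to 2413 CPM in the other 7 libraries, and the log2 fold change was -0.19 without library 1. The counts sit in 3 myoblast nuclei of library 1, in which Wdr62 made up 61.5%, 61.4% and 62.0% of 1827, 1234 and 1020 UMIs. The next highest myoblast nucleus had 1.23%. In the whole series, 4 nuclei had more than 10% of their UMIs from Wdr62, and 3 of these were the myoblast nuclei.

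Within the vg comparison, CG9650, on the X chromosome, had 3697, 5969 and 8803 CPM in vg nuclei and 2067, 2423 and 2832 CPM in the others, higher in 8 of 8 libraries without overlap (1.26, SE 0.14, adjusted p = 1.834e-06). It also differed between roX nuclei (1219, 2226 and 2706 CPM) and nuclei without roX (3253, 4167 and 5782 CPM), lower in 8 of 8 libraries (-0.97, adjusted p = 0.000513). It was chosen after its values were seen.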
